A study of Homo sapiens with 9 samples.

Results

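Sites listed with hairpin 2 only are positions that the authors' list for one SETD2 shRNA holds and that the lists for the control shRNA and the other SETD2 shRNA do not. They were chosen by their presence in one list and their absence from the others, at equal chromosome, base and strand. They number 417 of the 697 sites of hairpin 2, or 59.8% (95% exact Clopper-Pearson interval 56.1 to 63.5), and 417 of the 4429 positions in any of the 3 lists. That count is fixed by the rule and is a description. Of the other 280 sites of hairpin 2, 161 were also in the control list, 36 also in the list of hairpin 1, and 83 in all 3 lists.

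The samples are HepG2 cells, an established line from a human hepatocellular carcinoma, infected with lentivirus that carried an shRNA and kept under puromycin selection. The groups are shCtrl, a non-specific control shRNA, shSETD2#1, called hairpin 1, and shSETD2#2, called hairpin 2, with 3 labelled replicates each. All 9 samples share the infection and the selection, and the labels do not say whether the cells are clones. Every group has 1 pooled list of sites, so the values have no replicate error, and no difference between lists or classes of sites was tested. Intervals are 95% exact intervals that cover counting error only, and neighbouring sites are not independent. Knockdown of SETD2 is taken from the labels, since the lists hold no transcript levels. Positions are 1-based in hg19, and each site starts and ends at the base given.

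N6-methyladenosine (m6A) is an internal modification of mRNA that a nuclear complex built around METTL3 and METTL14 writes while genes are transcribed. SETD2 is the enzyme that puts the trimethyl mark on lysine 36 of histone H3 in gene bodies, and METTL14 is known to bind that mark. Antibody-based maps such as miCLIP locate m6A by C-to-T changes that reverse transcription leaves beside a base crosslinked to the antibody. The series title and the names of the deposited lists say miCLIP, while the sample titles say m6A-seq and the protocol gives m6A immunoprecipitation of sonicated mRNA without a crosslinking step. Where nothing was crosslinked, such changes can have sources other than m6A, so the positions are called sites here as the lists name them.

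Each site carries a whole-number score of at least 3, whose meaning the deposited lists do not state. The score was read as the number of reads over the base, and the number of reads with a C-to-T change was reconstructed from the running numbers in the site names. Those running numbers place all 697 sites of hairpin 2 in order of a binomial probability at a background rate of 1.00%. The order leaves a single possible number of changed reads at 676 sites, among them 411 of the 417 sites listed with hairpin 2 only. Both quantities are inferences, and duplicate reads of a molecule cannot be told from separate molecules.

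Most sites listed with hairpin 2 only rested on 1 changed read, and 194 of the 417 (46.5%) had a score of 3 to 9. Their median score was 12 (interval 9 to 15), with quartiles of 4 and 38 and a highest value of 1585. In the same list, sites found in another list as well had a median score of 21 (16 to 30). The latter were not alike: the 161 sites shared with control alone had a median of 11 (10 to 16), the 83 sites in all 3 lists 47 (30 to 78), and the 36 sites shared with hairpin 1 alone 106 (34 to 162). Sites listed with hairpin 2 only thus had scores like those shared with control alone and lower at the median than those that hairpin 1 also held. Together they carried 37.2% of the score summed over the hairpin 2 list.

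**Figure D1:**
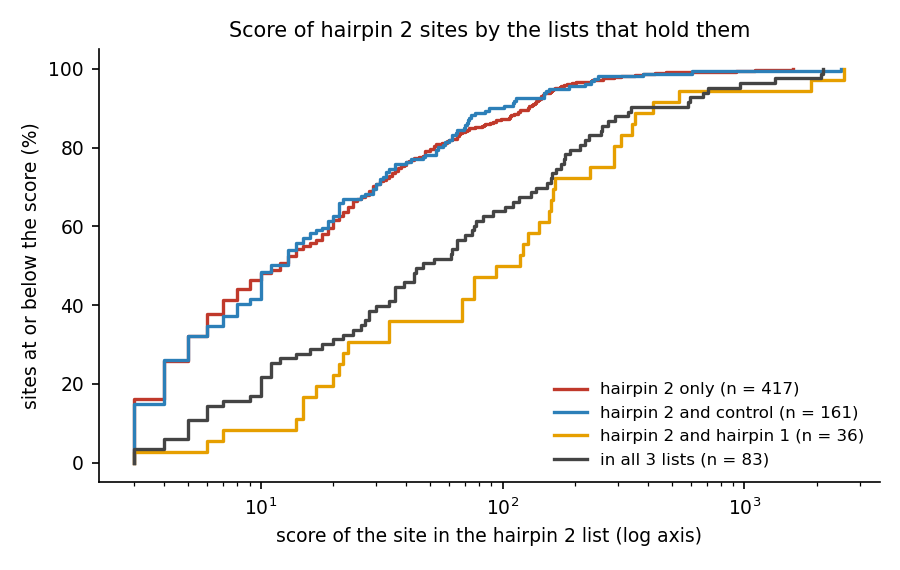
Cumulative share of hairpin 2 sites (vertical axis, percent) at or below a score in the hairpin 2 list (horizontal axis, log scale), 1 line for each class of site by the lists that hold it. The lines of the 417 sites listed with hairpin 2 only (median 12) and of the 161 shared with control alone (median 11) run together, and those of the 83 sites in all 3 lists (median 47) and the 36 shared with hairpin 1 alone (median 106) lie to the right.

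The share of the list that was found with hairpin 2 only was highest at shallow and lowest at deep sites. At scores of 3 to 9 it was 69.8% (194 of 278 sites, interval 64.0 to 75.1). Between 10 and 19 it was 53.9% (55 of 102, 43.8 to 63.8), and between 20 and 99 it was 57.5% (115 of 200, 50.3 to 64.4). At 100 or more it was 45.3% (53 of 117, 36.1 to 54.8). The lowest score that a list holds, 3, was the score of 68 of the 417 sites (16.3%) and of 28 of the 280 others (10.0%). At the other edge of the rule, 1 of the 280 shared sites had a best score of 3 in the other lists, the lowest with which it could still be found there. The median of that best score over the shared sites was 69.

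A single C-to-T read lay under 279 of the 417 sites, or 66.9% (62.2 to 71.4), against 130 of the 280 others, or 46.4% (40.5 to 52.5). From 2 to 4 changed reads were reconstructed at 112 sites (26.9%), and at least 5 at 26 sites (6.24%, 4.11 to 9.003), against 36.4% and 17.1% (12.9 to 22.1) of the others. The others were again not alike. Of the 161 shared with control alone, 56.5% (48.5 to 64.3) had 1 changed read. From 2 to 4 were found at 37.9% of them, and at least 5 at 5.59% (2.59 to 10.35). For 1 read and for at least 5, these intervals overlap those of the 417. Of the 36 shared with hairpin 1 alone, 41.7% had 1 and 27.8% at least 5. Of the 83 in all 3 lists, 28.9% had 1 and 34.9% at least 5. With the 280 others pooled, single reads were also the more frequent at sites listed with hairpin 2 only within each range of scores. At scores of 3 to 9, 62.9% of the sites listed with hairpin 2 only (55.7 to 69.7) and 54.8% of the others (43.5 to 65.7) had 1 changed read. Between 10 and 19 the shares were 81.8% (69.1 to 90.9) and 53.2% (38.1 to 67.9), and between 20 and 99 they were 76.5% (67.7 to 83.9) and 55.3% (44.1 to 66.1). At 100 or more they were 45.3% (31.6 to 59.5) and 18.8% (10.1 to 30.5). The intervals overlap at scores of 3 to 9 and do not at 10 or more. These ranges do not hold depth equal, and the last is open-ended. Its sites with a single changed read scored 165 at most. Scores reached 1585 among sites listed with hairpin 2 only and 2586 among the others.

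**Figure D2:**
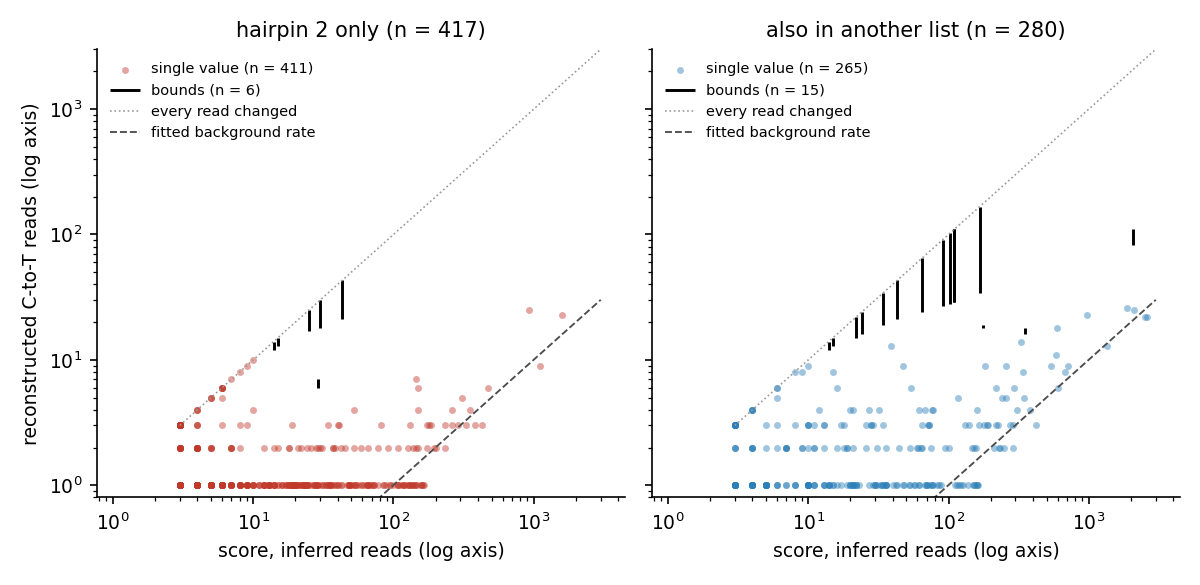
Reconstructed C-to-T reads (vertical axis, log scale) against the score, inferred to be reads (horizontal axis, log scale), with the 417 sites listed with hairpin 2 only on the left and the 280 others of the list on the right. Points have a single possible value and black bars span the bounds where the order of the list leaves several, at 6 and 15 sites. The row at 1 changed read holds 279 sites on the left and 130 on the right, and the bars on the right reach far deeper sites than those on the left.

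Seen from the reads, 68.2% of the hairpin 2 sites with a single changed read were listed with hairpin 2 only (279 of 409, interval 63.5 to 72.7). That share was 52.3% of sites with 2 to 4 changed reads (112 of 214, 45.4 to 59.2) and 35.1% of those with at least 5 (26 of 74, 24.4 to 47.1). In the order of the running numbers, where the earliest sites have the smallest binomial probability, 49.7% of the first 175 sites were listed with hairpin 2 only (42.1 to 57.4). In the 3 following runs of 174 sites it was 66.1%, 65.5% and 58.0%.

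Sites with both a high score and a high share of changed reads were few among those listed with hairpin 2 only. At scores of 20 or more, 4 of 168 such sites had a C-to-T share above 10%, or 2.38% (0.652 to 5.98), against 22 of the 149 other sites of the list, or 14.8% (9.49 to 21.5). Of those 22, 15 were among the 58 sites of that score in all 3 lists. Another 4 were among the 62 shared with control alone, and 3 among the 29 shared with hairpin 1 alone. Among positions listed with hairpin 1 only, a share above 10% was found at 1 of 76 (1.32%, 0.0333 to 7.11), and among positions listed in control only at 213 of 1265 (16.8%, 14.8 to 19.02). The fitted background rates of those lists were 1.43% and 1.57%. The 4 sites listed with hairpin 2 only, named after their values were seen, have bounds only. They are the chromosome 1 site at 224477000 (plus strand), with between 21 and 43 changed reads of 43, and the chromosome 9 site at 16584918 (plus strand), with between 18 and 30 of 30. The chromosome 7 site at 20401009 (plus strand) had between 17 and 25 of 25, and the chromosome 17 site at 14406209 (plus strand) 6 or 7 of 29. All 4 lay more than 100000 nt from the nearest control site on their strand.

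Among the other 164 sites with a score of at least 20, which have a single possible value, the C-to-T share ran from 0.606% to 9.52%, with a median of 2.24%. The highest belonged to the chromosome 17 site at 10608618 (plus strand), with 2 of 21 reads. Next came the chromosome 10 site at 22029068 (plus strand), with 2 of 22 or 9.09%, and the chromosome 1 site at 228787898 (plus strand), with 3 of 34 or 8.82%. The chromosome 15 site at 75639545 (minus strand) had 2 of 24, or 8.33%, and the chromosome 7 site at 76958856 (minus strand) 4 of 52, or 7.69%. The chromosome 12 site at 92537884 (minus strand), with 2 of 26, had the same share. These top values rest on 2 to 4 changed reads each.

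The 10 sites with the highest scores held 32.1% of the score of all 417. The mitochondrial site at 1690 (plus strand) came first with a score of 1585 and 23 changed reads, a share of 1.45%. Hairpin 1 had a listed site 22 nt away with a score of 151, and hairpin 2 itself had a further listed site at that distance. The nearest control site, 411 nt away, had a score of 96. On chromosome 16, the site at 31818633 (plus strand) had a score of 1106 and 9 changed reads, or 0.814%, below the fitted background rate. Its nearest control site on that strand was 340359 nt away.

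The chromosome 1 site at 566994 (plus strand) had a score of 919 with 25 changed reads, or 2.72%, the highest share of the 10. It lay 25 nt from a hairpin 1 site and 94 nt from a control site, with scores of 16 and 56. The tip of the short arm of chromosome 1 is known to carry a nuclear copy of part of the mitochondrial genome, and reads of such copies can be placed in either. Whether that touches this site was not tested.

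The other 7 had from 3 to 6 changed reads. On chromosome 17, the site at 57187333 (minus strand) had a score of 475 and a share of 1.26%. The chromosome 13 site at 113541473 (plus strand) had 427 and 0.703%, and the chromosome 18 site at 77663964 (minus strand) 379 and 0.792%. For the chromosome 6 site at 31698606 (minus strand), 65 nt from a control site with a score of 54, the values were 352 and 1.14%. The site on chromosome 22 at 21984954 (plus strand) had 327 and 0.917%, and that on chromosome 2 at 102796321 (plus strand) 309 and 1.62%. The last, on chromosome 11 at 62482532 (minus strand), had 289 and 1.04%, and a hairpin 1 site with a score of 106 lay 9 nt away. Of the 10 shares, 4 were below the fitted background rate of 1.00%, and their median was 1.09%.

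A share near or below that rate was common at deep sites. Of the 53 sites listed with hairpin 2 only at a score of 100 or more, 30 (56.6%) had a share below the fitted rate, with a median share of 0.926% and a highest of 4.86%. The 24 of them with a single changed read had scores of 106 to 165. Among the 64 other deep sites of the list, 22 (34.4%) were below the rate, and the median of the 57 with a single possible value was 1.28%. Those 22 were 10 of the 18 deep sites shared with hairpin 1 alone, 7 of the 16 shared with control alone and 5 of the 30 in all 3 lists. A site with a score below 100 cannot have a share below the rate, since it has at least 1 changed read. Over all scores, the same 30 sites made up 7.19% of those listed with hairpin 2 only (4.91 to 10.1). The same 22 made up 7.86% of the others (4.99 to 11.7), so both shares depend on how many deep sites each class holds.

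At the opposite end, the order of the list fixes every read as changed at 37 of the 417 sites, or 8.87% (6.32 to 12.0), and at 18 of the 280 others, or 6.43% (3.85 to 9.97). Bounds allow it at 5 and 12 more, with scores of 14 to 43 and 14 to 167. Counting those gives 42 of 417, or 10.1% (7.36 to 13.4), and 30 of 280, or 10.7% (7.35 to 14.9), so the order of the 2 classes turns with them. Of the 37 fixed by the order, 22 had a score of 3, and the highest score was 10, at the chromosome 11 site at 16593795 (plus strand, named after its value was seen). These 37 lay far from sites of the other lists. With a median distance of 807817 nt to the nearest control site on the strand, 1 of the 37 had a control site within 1000 nt (2.70%, 0.0684 to 14.2), and the nearest hairpin 1 site of any of them was 114442 nt away. Over all 417 sites the median distance to control was 188903 nt, and over the 194 with scores of 3 to 9 it was 244403.5 nt. Most of the 18 others with every read changed also lay more than 100000 nt from a further control site. The distance is thus not particular to the 37.

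Few sites listed with hairpin 2 only were near misses of the matching rule. The closest lay 8 nt from a site of another list, 3 lay within 10 nt and 24 within 50 nt. A control site stood within 1000 nt on the same strand at 74 of the 417, or 17.7% (14.2 to 21.8), and a hairpin 1 site at 37, or 8.87% (6.32 to 12.0). For the other 280 sites of the list, leaving out the match itself, a further control site within 1000 nt was found at 72, or 25.7% (20.7 to 31.3). A further hairpin 1 site within 1000 nt was found at 32 of the 280, or 11.4% (7.95 to 15.75). More than 100000 nt separated 244 of the 417 (58.5%) from any control site on their strand. Leaving out a match at the same base, 129 of the 280 others (46.1%) lay as far from control sites. They were 21 of the 36 shared with hairpin 1 alone (58.3%) and 108 of the 244 also in control (44.3%). Allowing control sites on either strand left the number of the 417 within 1000 nt at 74.

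Near neighbours were more frequent at higher scores. Within 1000 nt of a control site were 12.4% of the sites listed with hairpin 2 only at scores of 3 to 9 (8.09 to 17.9), 16.4% between 10 and 19 (7.77 to 28.8), 23 of the 115 between 20 and 99 (13.1% to 28.5%) and 34.0% at 100 or more (21.5 to 48.3). Of the other sites of the list it was 16 of 84, 21.3%, 27.1% and 35.9% in these ranges, and the intervals of both classes overlap in each. A hairpin 1 site within 1000 nt was found at 3.09% of the shallowest and 24.5% of the deepest sites listed with hairpin 2 only. Of the other sites of the list, leaving out a match at the same base, it was 1 of 84 (1.19%) and 18 of 64 (28.1%).

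**Figure D3:**
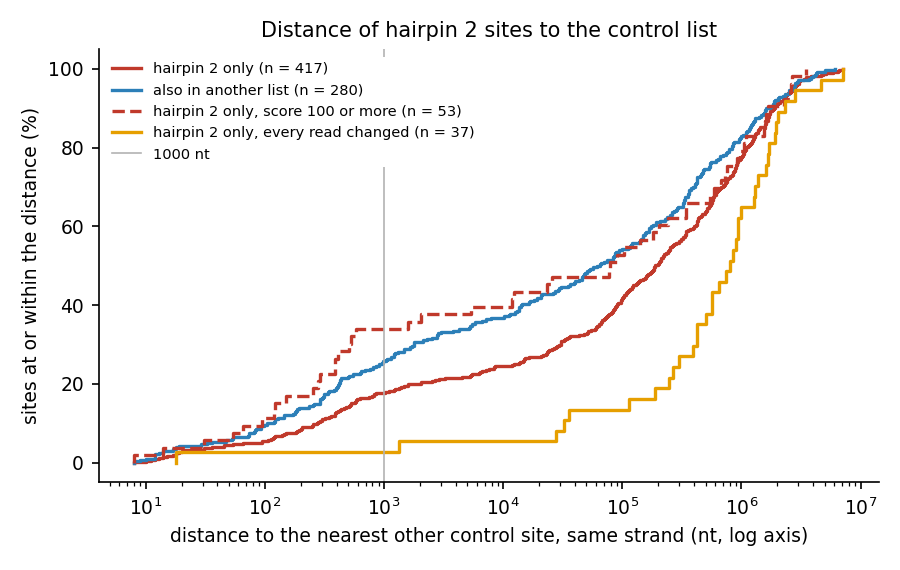
Cumulative share of sites (vertical axis, percent) within a distance of the nearest control site on the same strand, not counting a match at the same base (horizontal axis, nt, log scale), with a grey line at 1000 nt. At that line the 417 sites listed with hairpin 2 only stand at 17.7%, the 280 others at 25.7%, the 53 deep ones (score of 100 or more) at 34.0% and the 37 at which the order of the list fixes every read as changed at 2.70%.

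The 74 sites with a control site within 1000 nt pointed to 70 different control sites, most of them with a higher score than the median control site. Their median control score was 60.5, from 3 to 6489, against 14 over the control list. Of these 70, 9 (12.9%) were themselves in the hairpin 2 list and 16 (22.9%) in that of hairpin 1, and 51 were in neither. Over the whole control list, 244 of the 3755 sites were in the hairpin 2 list and 3369 (89.7%) were in neither. Where the control neighbour was missing from the hairpin 2 list, both lists named a base in the neighbourhood, though not the same one. The hairpin 2 score was below that of the control neighbour at 51 of the 74 and above it at 23. Sites with such a neighbour had a median score of 31.5 against 10 for the other 343, and 71.6% against 65.9% of them had a single changed read.

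The nearest such case was the chromosome 16 site at 83845254 (plus strand), with a score of 193 and 2 changed reads, 8 nt from a control site with a score of 149 and 2 changed reads. On the mitochondrial chromosome, the site at 13692 (score 77, 1 changed read) lay 10 nt from a control site with a score of 248 that hairpin 2 also listed. The chromosome 2 site at 107040891 (minus strand; score 11, 1 changed read) lay 11 nt from a control site with a score of 13. The chromosome 2 site at 170806339 (plus strand; score 4, 1 changed read) lay 12 nt from one with 167. For the chromosome 2 site at 237032927 (plus strand; score 59, 2 changed reads), a control site with a score of 133 stood 13 nt away, and hairpin 1 had a site at that distance too. In all 5 cases the hairpin 2 site had 1 or 2 changed reads, and 279 of all 417 sites had 1.

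Mitochondrial transcripts, which encode respiratory chain subunits and the mitochondrial rRNAs, gave 10 of the 417 sites, or 2.40% (1.16 to 4.37). They made up 16 of the 280 others, or 5.71% (3.30 to 9.11), 3.17% of the sites listed with hairpin 1 only (1.28 to 6.42) and 0.237% of those listed in control only (0.103 to 0.467). Of the 16, 4 were among the 161 sites shared with control alone (2.48%, 0.681 to 6.24), near the share of the 417. Another 4 were among the 36 shared with hairpin 1 alone (11.1%), and 8 among the 83 in all 3 lists (9.64%). All 10 mitochondrial sites listed with hairpin 2 only were on the plus strand. Their median score was 140, against 11 for the 407 nuclear sites and 218.5 for the mitochondrial sites shared with another list. Shares of changed reads ran from 0.633% to 7.5%, and 4 of the 10 had a single changed read.

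By position, the mitochondrial site at 1532 had 1 changed read of 136, and that at 1690, given above, 23 of 1585. The site at 3493 had 2 of 66 and the site at 4616 had 3 of 40, the highest share. At 9897 there were 2 of 201, at 11673 there were 3 of 173, and at 16287 there was 1 of 43. The sites at 13160, 13430 and 13692 had 7 of 144, 1 of 158 and 1 of 77. These last 3 span 532 nt and are the one group of 3 or more sites at gaps of up to 1000 nt. A control site with a score of 2269, 391 nt and 121 nt from the sites at 13160 and 13430, was not in the hairpin 2 list.

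Few nuclear sites listed with hairpin 2 only lay near one another. Counting hairpin 2 sites of any class, 33 of the 417 (7.91%) and 31 of the 280 others (11.1%) had another on their strand within 1000 nt. Of the 407 nuclear sites, 72 (17.7%) had a site of control or hairpin 1 within that distance. Joining the 417 sites alone, strand by strand, at gaps of up to 1000 nt gave 10 groups with 21 of the sites (5.04%). Of these groups, 8 were nuclear pairs. The tightest pair, on chromosome 10 at 49088682 and 49088698 (plus strand), was 16 nt apart, with scores of 18 and 15 and 2 and 1 changed reads. Its nearest control site was 2121770 nt away. The pair with the highest nuclear scores was on chromosome 1 at 566994 and 567671, with 919 and 26. On chromosome 14 (minus strand) the sites at 38060502 and 38061102, with scores of 179 and 29, lay 14 nt and 113 nt from control sites. These pairs were named after their values were seen.

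Sites listed with hairpin 2 only were spread over all autosomes and chromosome X. Chromosome Y had 1 hairpin 2 site, which another list held too. On the other chromosomes their share of the hairpin 2 sites ran from 38.5% on the mitochondrial chromosome (10 of 26, 20.2 to 59.4) and 40.6% on chromosome 12 (13 of 32, 23.7 to 59.4) to 75.0% on chromosome 11 (24 of 32, 56.6 to 88.5) and 85.7% on chromosome X (12 of 14, 57.2 to 98.2). Chromosome 1 held the most, 40 sites, or 9.59% of the 417, against 8.39% of the control list. Chromosome 5 held 6.24% against 3.68%. There, 26 of the 40 hairpin 2 sites were listed with hairpin 2 only (65.0%, 48.3 to 79.4), near the 59.8% of the whole list. On the plus strand lay 221 of the 417 (53.0%, 48.1 to 57.9) and 146 of the 280 others (52.1%, 46.1 to 58.1).

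**Figure D4:**
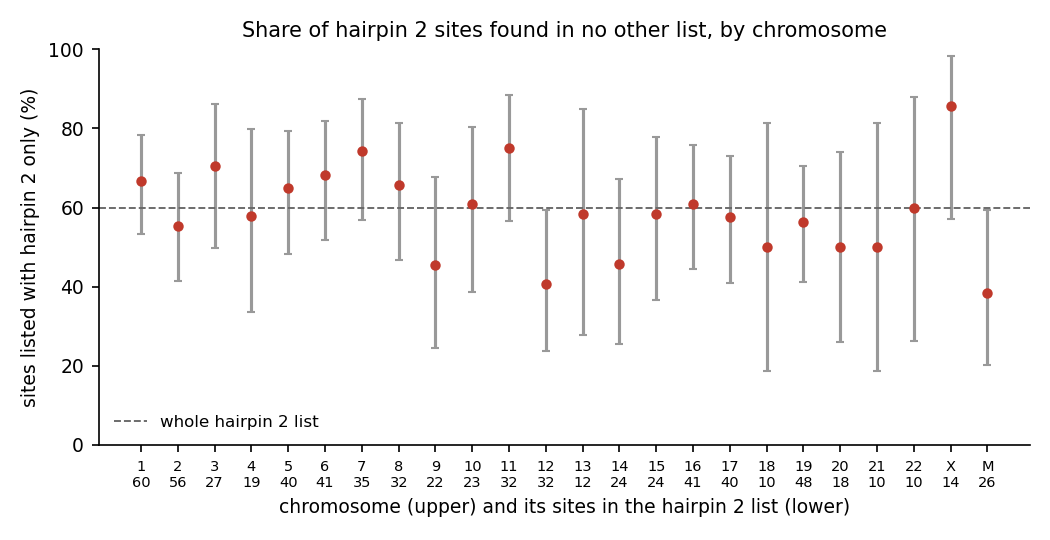
Share of each chromosome's hairpin 2 sites that no other list holds (vertical axis, percent; points, with 95% exact intervals as bars), by chromosome (Y, with 1 site, left out), with the number of hairpin 2 sites under each name. The dashed line marks 59.8%, the share in the whole list, and the bars of chromosome 12 and the mitochondrial chromosome end just below it. The intervals make no allowance for the number of chromosomes shown.

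The equivalent sites of the other lists are given for scale. Positions listed with hairpin 1 only number 221 of 482, or 45.9% (41.3 to 50.4), with a median score of 8 (6 to 12), and 73.3% of them had a single changed read (67.0 to 79.0). Positions listed in control only number 3369 of 3755, with a median score of 12 (12 to 13), and 43.5% had a single changed read (41.8 to 45.2), below both hairpins. Not counting sites with bounds only, every read was changed at 7.69% of the hairpin 1 positions (4.54 to 12.0) and 11.9% of the control ones (10.9 to 13.1), against 8.87% for hairpin 2. The 3 lists differ in length, score and fitted rate, so these values stand side by side and were not compared by a test.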

How the data were processed

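Per the labels, m6A-enriched libraries were made from HepG2 mRNA. The submitters' notes on processing list cutadapt 1.13, Bowtie 1.1.2, FastQC 0.11.5 and hg19. Site names begin with rbsSeeker, whose settings, like the way replicates were combined, are not stated in the files. The deposited score, set by the authors, has no stated unit.

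Sites were matched on chromosome, base and strand. The background rate that places all sites of a list in order was searched in steps of 0.00002% (1.57% in control, 1.43% with hairpin 1, 1.00% with hairpin 2), and bounds on changed reads were taken at the middle rate. The calculation was tested on simulated lists ordered by the same probability, which does not check the meaning given here to scores and running numbers. Intervals are 95% exact Clopper-Pearson intervals for shares and order-statistic intervals for medians. Depth is known from the score alone.

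The members, lists and rules were chosen with earlier results of these data known. Named sites are the 10 with the highest score, the 5 with the highest single-valued share at a score of at least 20, all mitochondrial ones, the 5 nearest to a control site, and groups of 3 or more, with ties going to the lower chromosome; other sites were named after their values were seen. Genes, gene lists, cell markers, the DRACH motif and sequences were not analysed here, as the tables at hand are of another build. Alternatives cover the lowest score used, matching distance, strand, chromosome M, merging, gap and rate. Python 3.11.15, numpy 2.4.6, pandas 2.3.3, scipy 1.17.1 and matplotlib 3.10.9 were used.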

Additional observations from a re-analysis of the deposited data

How the results depend on the processing

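Of 41 alternatives computed, 30 kept the value within its interval, or a count within 1.5 times. With a score of at least 10 or at least 20, the sites listed with hairpin 2 only numbered 223 and 168, their share of the list was 53.2% and 53.0%, their median score 35 and 52, and their mitochondrial share 4.48% and 5.95%. These shifts follow from leaving out shallow sites, and all 10 mitochondrial sites have scores of at least 40. Sites listed with hairpin 2 only that had a control site nearby numbered 41 of 168 at a score of at least 20 and 23 of 417 at a distance of 100 nt, in place of 74 of 417 within 1000 nt. A gap of 100 nt left 1 group in place of 10. Matching within 10 nt or 50 nt left 414 and 393 of the 417 sites. The planned motif and gene results were not run, as no genome of the files' build was used. No paired analysis was possible because each shRNA has 1 pooled list. Shallow lists limit the C-to-T share: at a score of 3 it cannot be below 33.3%, and control coverage at these positions is not in the lists.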
